A study of Mus musculus with 2756 samples.

Results

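N1d.early is the cluster of young cortical neurons, labelled by the authors, found mainly 1 day after the earliest injections. It comprised 320 of the 2756 single cells in the deposited count table, chosen by their cluster label and not by any level measured here. Cells dividing at the ventricular surface of the embryonic mouse neocortex were marked by injection of FlashTag, a fluorescent dye, on embryonic day 12, 13, 14 or 15 (E12 to E15). Labelled cells of the putative primary somatosensory cortex were collected 1, 24 or 96 h later, sorted for the brightest fluorescence, captured on C1 microfluidic circuits and sequenced from polyadenylated RNA. Strain, genotype, sex and the number of embryos were not given in the labels used here, so all groups are described by injection day, collection time and cluster alone.

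Of the 320 cells, 310 were collected at 24 h, of which 54.5% came from injection at E12, 39.03% at E13, 5.81% (18 cells) at E14 and 0.645% (2 cells) at E15. A further 10 cells were collected at 1 h (4 at E12, 2 at E13 and 4 at E15), and no cell was collected at 96 h. The comparison groups at 24 h were the basal progenitors (BP, the clusters BP.early and BP.late pooled, 78, 47, 8 and 35 cells from E12 to E15) and the other 1-day neuron cluster, N1d.late (7 cells at E12, 33 at E13 and more on later days). The 4-day neurons were the clusters N4d.early1, N4d.early2, N4d.late1 and N4d.late2 at 96 h. Counts were summed over the cells of a cluster in each injection day, and a sum of at least 5 cells was treated as 1 sample, which left N1d.early with 3 samples (E12, E13 and E14). The labels tie no cell to an embryo or litter, so each p-value measures only the spread between these sums. The clusters are the authors' own labels of these same cells, so differences between clusters are given as sizes relative to that spread and are not independent evidence for the clusters.

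In the developing neocortex, apical progenitors at the ventricle give rise to neurons directly or through basal progenitors, which express Eomes and divide away from the ventricle. A proneural cascade runs from Neurog2 in progenitors to Neurod1, Neurod2 and Neurod6 in newborn excitatory neurons, which then migrate radially and extend an axon. Neurons born first settle in deep layers and use transcription factors such as Tbr1, Bcl11b, Fezf2 and Sox5, whereas later-born neurons settle in upper layers and use Cux1, Cux2 and Pou3f2.

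The 4 genes given as markers of N1d.early are protein-coding genes in GRCm38: Neurod2 at chr11:98325415-98329648, Neurod6 at chr6:55677822-55681263, Tbr1 at chr2:61802930-61814114 and Gap43 at chr16:42248442-42340651. Among the genes below, 8 were called higher in N1d.early than in both BP and the 4-day neurons, and 10 of these 12 genes had a promoter in RefSeq (GRCm38.p6, 250 bases before to 50 after a transcription start). Neuronal bHLH factors such as Neurog2 and Neurod2 bind E-box motifs, so the windows were searched on both strands for CAGATG and for CAGCTG, which is its own reverse complement. CAGATG was found in the Neurod2 window alone and CAGCTG in the Sox11 window alone, and no window of Neurod6, Tbr1, Bcl11b, Nuak1, Tagln3, Tmsb10, Tmsb4x or Epha5 held either motif. For comparison, CAGATG occurred in 17.2% and CAGCTG in 16.3% of all 32851 RefSeq windows of this length. The windows with a match, and that of Bcl11b, which had the largest change against BP of the 8, are shown 5′ to 3′ on the gene's strand, with the matched motif in capitals. They cover chr11:98329596-98329895, chr12:27342669-27342968 and chr12:108003365-108003664 of GRCm38, all on the minus strand.
Neurod2: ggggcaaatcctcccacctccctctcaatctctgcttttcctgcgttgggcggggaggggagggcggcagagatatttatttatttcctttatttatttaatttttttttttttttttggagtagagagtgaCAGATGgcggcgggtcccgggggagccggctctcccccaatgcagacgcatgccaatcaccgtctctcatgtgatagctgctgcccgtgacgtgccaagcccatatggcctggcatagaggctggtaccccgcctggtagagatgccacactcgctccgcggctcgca
Sox11: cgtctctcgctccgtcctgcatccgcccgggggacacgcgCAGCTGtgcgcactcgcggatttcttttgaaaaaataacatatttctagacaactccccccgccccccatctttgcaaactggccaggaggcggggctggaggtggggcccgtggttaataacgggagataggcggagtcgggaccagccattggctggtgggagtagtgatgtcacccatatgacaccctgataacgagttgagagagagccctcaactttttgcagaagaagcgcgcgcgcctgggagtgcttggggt
Bcl11b: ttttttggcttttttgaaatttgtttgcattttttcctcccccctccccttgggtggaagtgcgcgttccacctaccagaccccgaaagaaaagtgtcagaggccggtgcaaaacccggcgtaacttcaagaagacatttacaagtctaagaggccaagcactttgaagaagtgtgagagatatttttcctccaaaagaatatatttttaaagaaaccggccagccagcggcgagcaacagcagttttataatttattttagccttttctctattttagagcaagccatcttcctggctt
Both matches lay upstream of the transcription start. These matches are a description of the windows, and no binding was measured.

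N1d.early made up most 1-day neurons on early days and few on late days. Among N1d cells at 24 h its share was 96.02% at E12 (exact 95% binomial interval 91.98 to 98.4), 78.6% at E13 (71.2 to 84.8), 10.5% at E14 (18 cells, 6.32 to 16.03) and 1.53% at E15 (2 cells, 0.185 to 5.41). The intervals cover counting error only, and each day was a single sample, so no test of the decline was made. E12 and E13 shared a run code at 24 h and E14 and E15 shared another. The drops from E12 to E13 and from E14 to E15 lay within a run code. The drop from E13 to E14 fell where the run code changed, so injection day and run code cannot be told apart for it. N1d.early cells were also shallower than their neighbours. The median count per cell was 234218 at E12, 285016 at E13 and 99361 at E14, against 352400, 550331 and 427016 in N1d.late and 373803, 407568 and 549364 in BP. Under 200000 counts were 46.2% of N1d.early cells at E12, 26.4% at E13 and 83.3% (15 of 18) at E14, against 14.9% of N1d.late cells at E14. The E14 sum held 2.83 M counts, against 44.2 M at E12 and 39.8 M at E13. In that sum, single cells supplied much of some genes' reads (84.9% for Tbr1 and 96.0% for Stmn2). The part of depth in the assignment of cells to N1d.early was not tested.

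**Figure D1:**
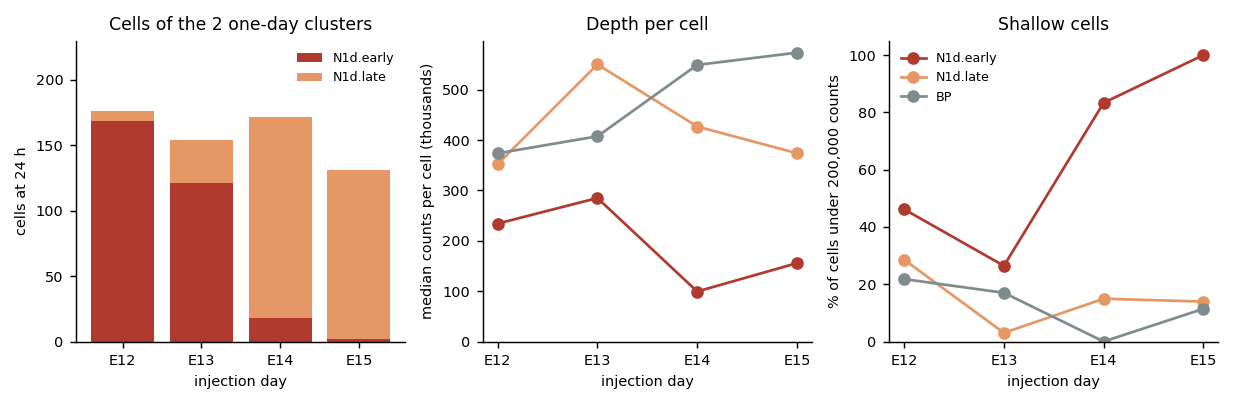
Cells and depth at 24 h by injection day. Left, number of N1d.early and N1d.late cells (stacked bars from 0). Middle, median counts per cell. Right, percent of cells under 200,000 counts. N1d.early falls from E12 to 2 cells at E15 and has the lowest median depth on each day.

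The 4 markers were read in every N1d.early sum, at higher means than in BP. Levels are CPM, the reads of a gene scaled to a fixed total per sum. Neurod2, a neuronal bHLH factor, stood at 936 CPM at E12, 990 at E13 and 1277 at E14, above all 4 BP sums (214.8 to 564 CPM). Neurod6, a related factor, stood at 1898, 1848 and 1583 CPM, again above the BP sums of 225.8 to 1239. Tbr1, a deep-layer and preplate factor, was lower in absolute terms at 220.7, 209.03 and 142.7 CPM, and its E14 value did not exceed the BP value at E12 (143.1 CPM). Gap43, a growth cone protein, stood at 345.3, 237.4 and 141.7 CPM, and BP sums lay between 47.3 and 109.1. Of these 4 markers, Neurod2 alone passed the test against BP (edgeR quasi-likelihood, log2 change 1.56 ± 0.26 SE, adjusted p = 0.0405). The adjusted p from edgeR was 0.314 for Neurod6, 0.462 for Tbr1 and 0.172 for Gap43, with log2 changes of 1.35, 1.03 and 1.63. None of the 4 passed against N1d.late or the 4-day neurons, and all 4 overlapped the N1d.late sums.

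In single cells, a Neurod2 read was found in 99.03% of the 310 cells at 24 h and a Neurod6 read in 99.4%, a Tbr1 read in 72.3% and a Gap43 read in 66.8%. In apical progenitors at 1 h, the shares were 34.5%, 35.5%, 14.7% and 27.8%, at a higher median depth (319328 counts, against 239916 in N1d.early), and whether these were stray reads or low expression was not tested. After thinning each cell to 100000 counts, which left out 39 of the 310 cells, 63.8% of N1d.early cells kept a Gap43 read, against 53.7% of N1d.late and 38.3% of BP cells. These shares pool days, and within N1d.early the thinned Gap43 share was 74.3% at E12, 55% at E13 and 33.3% at E14 (9 cells). The other thinned shares in N1d.early and N1d.late were 99.6% and 100% for Neurod2, 99.3% in both for Neurod6, and 68.3% and 67.4% for Tbr1. Sox2, a progenitor factor, was read in 11.9% of N1d.early, 42.9% of BP and 85.03% of apical progenitor cells (8.12%, 37.7% and 76.6% after thinning). Other progenitor and cell cycle genes were read in more N1d.early cells. In the same order and without thinning, the shares were 64.2%, 91.1% and 98.2% for Pax6 and 77.1%, 89.9% and 100% for Vim. They were 50%, 81.5% and 91.2% for Mki67 and 72.9%, 91.1% and 84.3% for Top2a.

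Markers of most other cell types were low, although the interneuron and glial lists were highest at E14. The summed level of 15 interneuron markers was 18.5, 15.5 and 79.1 CPM at E12, E13 and E14. On these days it was 39.03, 13.9 and 16.4 CPM in BP and 3.41, 2.17 and 21.9 CPM in N1d.late. Gad2, at 6.60, 1.84 and 1.06 CPM in N1d.early, did not rise with the sum at E14. Cajal-Retzius markers, 7 of 9 of them in the table, summed to 64.5, 122.2 and 6.71 CPM, with Reln at 26.4, 54.5 and 0.353 CPM. Lhx5, another marker of those cells, was at or below 0.126 CPM. Microglial markers (3 of 10 in the table) summed to at most 1.58 CPM, vascular markers (3 of 10) to at most 12.3 CPM, and none of 7 red blood cell markers was in the table. Astrocyte and late glial markers (12 of 13) summed to 60.2, 120.9 and 299.9 CPM. Their sums were 169.5, 196.3 and 564 CPM in BP and 190.03, 69.2 and 128.2 CPM in N1d.late.

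**Figure D2:**
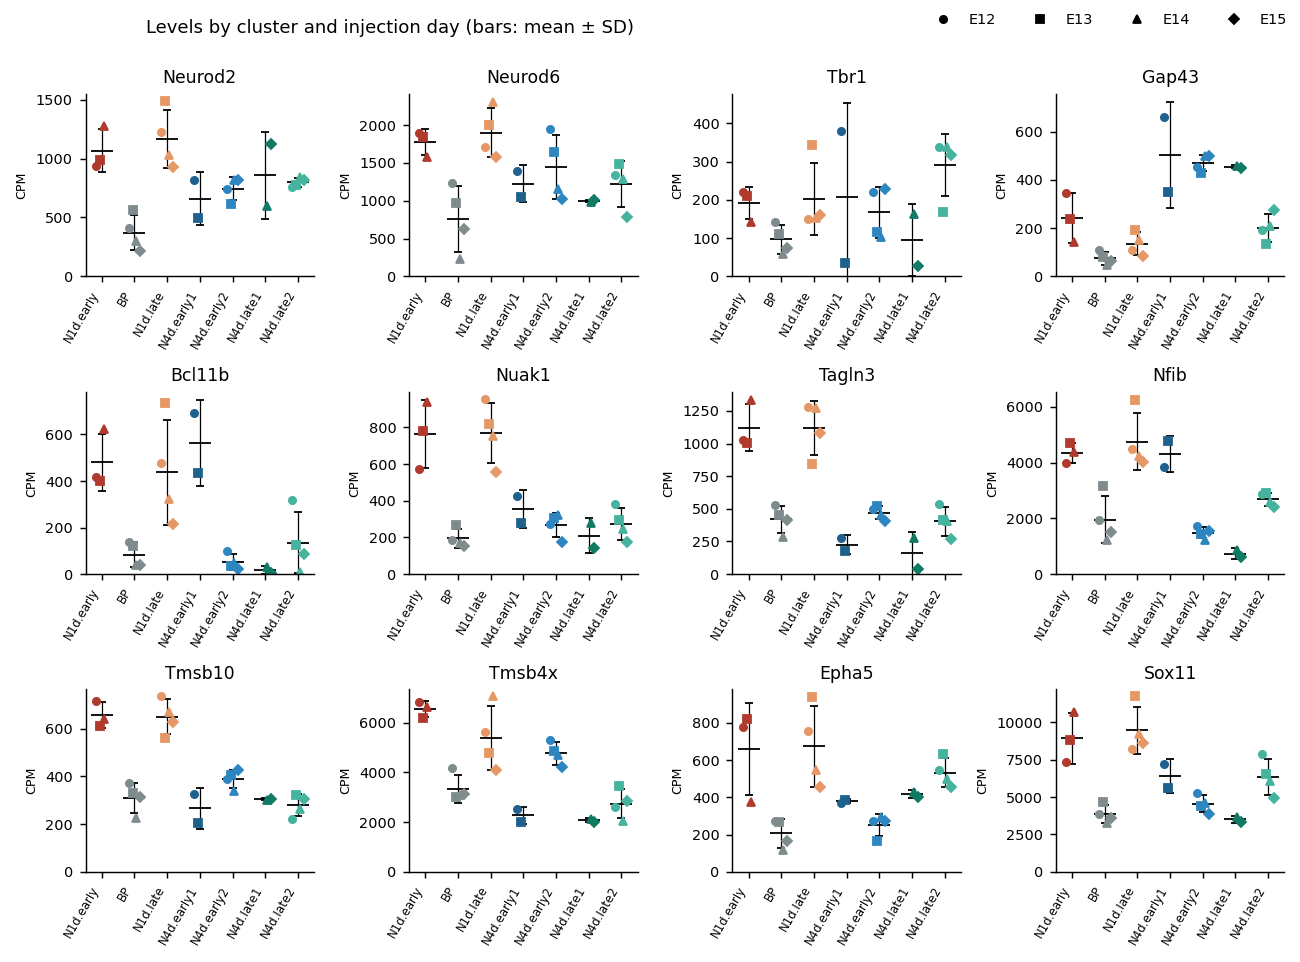
Level (CPM, linear axis from 0) of the 4 given markers and of the 8 genes called higher in N1d.early than in BP and in the 4-day neurons. Points are sums of cells, shaped by injection day, and bars are mean ± SD over the sums of a cluster (2 sums for N4d.early1 and N4d.late1). N1d.early and N1d.late lie close together, and Bcl11b in N4d.early1 (433 to 693 CPM) reaches the level of N1d.early.

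Against basal progenitors on the same days, N1d.early neurons had more RNA of 5 cytoskeleton genes, of the guidance receptors Robo2 and Epha5 and of the adhesion molecule Cntn2, and less of the basal progenitor factors Eomes and Neurog2. With edgeR (quasi-likelihood test, day as a block, Benjamini-Hochberg adjusted p under 0.05), 28 of 9548 genes were called higher (0.293%) and 5 lower (0.0524%). The number rested on each day. Without E12, E13 or E14 no gene was called, and without E15 (a day of BP and N1d.late alone) 8 were, while DESeq2 called 3.39% of genes. With BP.early cells alone, which give no BP sum at E14, no gene was called, and with BP.late cells alone 0.349% were. In cells of at least 200000 counts 0.0211% were. That setting left 3 N1d.early cells at E14, too few for a sum, so it also lost the E14 sample. Bcl11b, a transcription factor of subcortical projection neurons, had the largest change among the genes named as higher, at 419, 399 and 621 CPM against 137.5, 120.03 and 39.6 CPM in BP (log2 change 2.58 ± 0.45 SE, edgeR adjusted p = 0.0454). Cntn2, an axonal adhesion molecule of the immunoglobulin family, stood at 688, 563 and 488 CPM against 259.5, 135.9 and 52.3 CPM. Gpm6a, a neuronal membrane glycoprotein linked to neurite growth, stood at 623, 716 and 762 CPM against 176.5, 280.2 and 132.3 CPM. For all 3 genes, the lowest N1d.early value lay above the highest BP value.

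Receptors were among the genes called higher. Robo2, a receptor for Slit guidance cues, stood at 226.3, 392.0 and 287.2 CPM in N1d.early and at 67.4, 91.7 and 53.6 CPM in BP. Epha5, an ephrin receptor, stood at 776, 823 and 377 CPM against 271.8, 270.3 and 119.9 CPM. Gria2, an AMPA-type glutamate receptor subunit, stood at 459, 689 and 768 CPM against 182.6, 204.2 and 181.2 CPM, a log2 change of 1.89 ± 0.23 SE (edgeR adjusted p = 0.0129). Its BP sums differed little among themselves, so the 3 N1d.early values were all more than 2-fold above them.

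The cytoskeleton list gave 5 of 25 tested members higher and none lower, with a median log2 change of 1.25 beside 0.05 over all genes tested. The 5 were the tubulins Tubb3 (1504, 1482 and 1735 CPM against 746, 644 and 343.1) and Tuba1a, the microtubule-associated Map1b, and the collapsin response mediators Crmp1 and Dpysl3. Of the 16 young excitatory neuron markers, Neurod2, Tubb3 and Cntn2 were called, and all 16 were higher in N1d.early on each of the 3 days, against 17.4% of all genes tested (median log2 change 1.70). Dcx, a microtubule protein of migrating neurons, was not called (759, 803 and 1423 CPM against 385, 424 and 158.2 CPM, edgeR adjusted p = 0.109). Among 26 radial migration genes, Tuba1a and the kinase Nuak1 were called higher (median 1.11), and among 29 axon guidance genes Robo2 and Epha5 were (median 1.25). Of 16 axonal adhesion genes Cntn2 alone was called (median 1.47).

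The 5 genes called lower than in BP were Eomes, Neurog2, Dbi, Gng5 and Prdx1. Eomes, the defining transcription factor of basal progenitors, stood at 149.03, 135.7 and 362 CPM against 545, 951 and 1440 CPM, a log2 change of -2.04 ± 0.35 SE (edgeR adjusted p = 0.0410). Neurog2, the proneural factor, stood at 80.3, 74.3 and 157.2 CPM against 183.1, 433 and 720 CPM (log2 change -1.84 ± 0.32 SE). Dbi, an acyl-CoA binding protein of progenitors and glia, stood at 379, 278.3 and 436 CPM against 1004, 894 and 2032 CPM. Within each gene the 2 groups did not overlap on these days. No cell cycle gene was called, although all 26 tested G2 and M phase genes and all 23 S phase genes had negative log2 changes (medians -1.91 and -1.86). S phase genes summed to 1399, 1208 and 974 CPM in N1d.early, below all BP sums (1943 to 5100 CPM), whereas the sums of G2 and M phase genes overlapped. G2 and M phase genes summed to 1329, 795 and 1758 CPM in N1d.early and to 7347, 6580 and 883 CPM in BP, and BP was below N1d.early at E14, where it held 8 cells.

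Against 4-day neurons, N1d.early neurons had less RNA of Mapt, which encodes tau, of Mef2c, of 10 of 23 ion channel and receptor genes and of 7 of 20 axonal adhesion genes. The contrast was taken against the mean of N4d.early2 and N4d.late2, the clusters present on all 4 days. The 24 h and 96 h sums shared no run code. Collection time, run code and cluster therefore cannot be told apart in this contrast. Of 10290 genes, edgeR called 1.52% higher and 2.62% (270 genes) lower in N1d.early, 4.14% in all. Calls in either direction came to 1.65% of genes without E12, 2.10% without E13, 2.40% without E14 and 2.91% without E15, and each of these held more lower than higher calls. Against N4d.early2 alone 0.612% were higher and 1.88% lower, and against N4d.late2 alone 1.74% and 2.74%. Of the 270 lower genes, 28 had no read in any N1d.early sum. The filter asked for 10 CPM in at least 3 of the 15 sums of this fit, and only 3 of these were N1d.early. A gene present only at 4 days therefore passed it more easily than a gene present only in N1d.early. The part of the filter in the excess of lower calls was not tested. The median mitochondrial share of counts per cell was 3.35% in N1d.early, 4.13% in N4d.early2 and 7.69% in N4d.late2, and the ribosomal protein share 6.70%, 6.32% and 2.96%. The part of these shares in the calls was not tested.

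Among 14 tested maturing neuron markers, 10 were called lower and none higher (median log2 change -2.23, against -0.08 over all genes tested). Taken singly, N4d.early2 and N4d.late2 each gave 10 lower calls as well. Over all genes tested, 2.62% were called lower. In the 24 h fit, which holds the same N1d.early sums, 12 members passed the filter. Those that passed only with the help of 4-day sums, Camk2b among them, had their direction largely set by the filter. Mapt, which encodes the axonal microtubule protein tau, stood at 138.9, 42.0 and 57.2 CPM in N1d.early, against 1145 to 1488 CPM in N4d.early2 and 694 to 1493 CPM in N4d.late2. Its log2 change was -4.02 ± 0.31 SE (edgeR adjusted p = 1.5e-06). Mef2c, a transcription factor of maturing cortical neurons, stood at 24.6, 23.0 and 0.353 CPM, against 1103 to 1314 and 512 to 1124 CPM in the 2 clusters. Camk2b, a calcium-dependent kinase subunit of synapses, stood at 4.02, 0.553 and 0 CPM, against 285.7 to 341.2 and 86.2 to 281.7 CPM. These genes did not overlap between the N1d.early and 4-day sums, but they were picked from called genes, which favours such separation. Mapt and Mef2c in N1d.late (54.2 to 180.9 and 0.379 to 42.8 CPM) overlapped N1d.early.

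Ion channel and receptor genes gave 10 lower calls and none higher among 23 tested (median -2.43), beside 2.62% lower over all genes. In the 24 h fit, which holds the same N1d.early sums, 16 members passed the filter. Members that passed only with the help of 4-day sums had their direction largely set by the filter. Gria2, which was already above BP, reached 1277 to 2284 CPM in N4d.early2 and 3245 to 4877 CPM in N4d.late2, so that its log2 change against 4-day neurons was -1.83 ± 0.19 SE (edgeR adjusted p = 2.23e-05). Grin2b, an NMDA receptor subunit, stood at 20.0, 4.55 and 0 CPM, against 202.4 ± 38.2 CPM in N4d.early2 and 343.8 ± 123.1 CPM in N4d.late2 (SD, n = 4 each). Grin1, the obligatory NMDA receptor subunit, had no read in the 3 N1d.early sums and averaged 13.7 ± 9.02 CPM in N4d.early2 and 35.2 ± 24.3 CPM in N4d.late2 (SD, n = 4 each). It was at least 708-fold lower than the mean of the 2 clusters, against a floor of 3 reads over the group. Among 20 axonal adhesion genes, 7 were called lower and none higher, including Opcml (1.63, 3.14 and 0 CPM against 107.2 to 137.3 and 65.3 to 200.2 CPM). Upper-layer genes gave 7 lower calls of 17, among them Cux1 and Mef2c, and the maturing neuron list also holds Mef2c. In the 24 h fit, 16 adhesion and 15 upper-layer genes passed the filter, so the limit given for channel genes holds here too.

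The genes with the largest falls by the naming rule were close to absent 1 day after labelling. All but Ntrk2 of the 12 failed the filter in the 24 h fit, which holds the same N1d.early sums. They were thus tested only with the help of 4-day sums. Their low level in N1d.early was largely set by the filter and by ranking on the size of the fall. Ndrg1 stood at 0.0226, 0.101 and 0.353 CPM, a total of 6 reads, against 133.03 to 264.3 CPM in N4d.early2. Ntrk2, the receptor of brain-derived neurotrophic factor, stood at 0.859, 0.277 and 0.707 CPM, against 47.4 to 158.9 and 80.8 to 212.4 CPM. Gucy1a3, Sybu, Fbn2, Ryr3 and Cacna1e all lay at or below 1.45 CPM on each day, and Ldb2 reached 1.70 CPM. Fitted changes of genes with so few reads depend on the prior count, so levels are given in place of folds. Of the 12 genes named as lower, 11 were still called without E12, E13 or E15, and 12 without E14. These calls come under the same limit.

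Of 11 interneuron genes tested, 4 (Dlx6os1, Npy, Maf and Nxph1) were called lower in N1d.early, beside 2.62% of all genes tested. All 11 had negative log2 changes. Only 1 of the 15 markers passed the filter in the 24 h fit, which holds the same N1d.early sums. The rest of the 11 therefore passed only with the help of 4-day sums, so their direction was largely set by the filter. The 15 markers summed to 135.01 to 388 CPM in N4d.early2 and 198.97 to 693 CPM in N4d.late2, against 15.5 to 79.1 CPM in N1d.early. The part of this difference in marker level in the 4 calls was not tested.

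Eomes, Neurog2 and the GTPase Rnd2 were called higher in N1d.early than in 4-day neurons. Basal progenitor markers gave 7 higher calls of 14 and none lower (median log2 change 2.84), and the proneural and neuronal bHLH list gave 2 of 15, Neurog2 and Nhlh1, with 5 of the 15 changes negative. Eomes, at 149.03, 135.7 and 362 CPM in N1d.early, stood at 0.757 to 12.4 CPM in N4d.early2 and 38.2 to 104.1 CPM in N4d.late2, so its level in N1d.early lay between BP and the 4-day neurons. Neurog2 showed the same order, with 5.84 to 22.8 and 2.45 to 19.1 CPM in the 4-day clusters. Rnd2, a small GTPase of radial migration, stood at 890, 713 and 429 CPM, against 6.10 to 23.5 CPM in N4d.early2 and 0.873 to 120.4 CPM in N4d.late2 (log2 change 4.34 ± 0.76 SE, edgeR adjusted p = 0.00237). It was not called against BP (315.1, 491 and 283.1 CPM, edgeR adjusted p = 0.172). Slc30a10, a manganese transporter, stood at 233.96, 269.1 and 294.6 CPM and at most 28.1 CPM in either 4-day cluster. Rnd3 and the semaphorin Sema6d were called higher as well, at 142.2 to 195.02 and 191.5 to 284.2 CPM. All 20 tested G2 and M phase genes had positive log2 changes (median 3.73), and Top2a and Hmgb2 were called. Top2a lost its call without E12, E13 or E14. Only 20 of the 26 members passed the filter in this fit. The list summed to 795 to 1758 CPM in N1d.early, 121.4 to 253.5 CPM in N4d.early2 and 275.6 to 487.6 CPM in N4d.late2. The filter thus favoured members present in N1d.early, and their shared sign is not independent of it.

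Of the 12 genes named as higher, 6 were still called without E12, 5 without E13, 3 without E14 and 8 without E15. Acsf3 (9.43, 17.7 and 318.3 CPM), Vrk2 (62.3, 74.3 and 394 CPM) and Fgfrl1 (6.58, 11.4 and 164.99 CPM) were highest in the E14 sum, in which 1 cell gave 99.9% of the Acsf3 reads. Rnd2 and Slc30a10 were called without E13, E14 or E15, and Slc30a10 without E12 too, whereas Rnd2 lost its call without E12. In cells of at least 200000 counts, 2 of the 12 were still called, Rnd2 and Top2a, and Slc30a10 was not. That setting also loses the E14 sum of N1d.early, so depth and the loss of a sample cannot be told apart. In all, 15 of the higher genes had an E14 level over 3 times that of both other days. Deep-layer genes split: Bcl11b, Fezf2 and Sox5 were called higher and Ldb2 lower, of 17 tested. Sox5, a deep-layer and subplate factor, stood at 425, 361 and 779 CPM, against 36.1 to 73.8 CPM in N4d.early2 and 772 and 1124 CPM in N4d.early1. Fezf2, a factor of subcerebral neurons, stood at 138.4, 111.8 and 32.1 CPM, against 3.22 to 18.7 CPM in N4d.early2 and 214.1 and 192.5 CPM in N4d.early1. For both, N4d.early1, with 21 and 9 cells at E12 and E13, lay above N1d.early on those days.

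**Figure D3:**
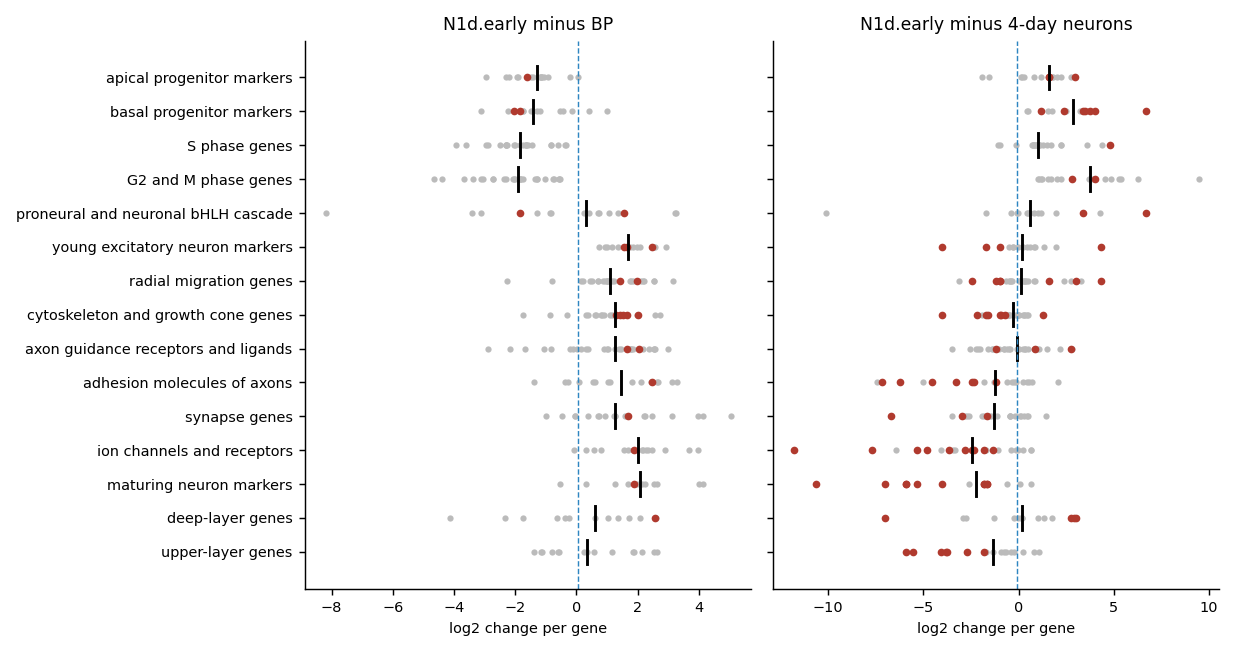
Log2 change of each tested gene in 15 lists, against BP (left) and against the mean of N4d.early2 and N4d.late2 (right). Grey points are genes not called, red points genes called by edgeR, black bars list medians, and the dashed line the median of all genes tested. Medians of progenitor and cell cycle lists lie below 0 on the left and above 0 on the right, and those of channel and maturing neuron lists change sides the other way.

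Between these changes stood 8 genes called higher in N1d.early than in both BP and the 4-day mean, with positive fitted log2 differences to each of the 4 N4d clusters: Bcl11b, Nuak1, Tagln3, Nfib, Tmsb10, Tmsb4x, Epha5 and Sox11. Against N4d.early1 the fitted log2 difference was 0.40 for Bcl11b and 0.11 for Nfib, and on single days the levels went the other way: Bcl11b was higher in N4d.early1 at E12 and E13 (693 and 433 CPM, against 419 and 399 in N1d.early), and Nfib at E13 (4764 against 4698 CPM). The 2 contrasts share the N1d.early sums, and no gene was called lower in both. Without E12, E13 or E14 none of the 8 was called in both contrasts, and without E15 1 was. None of the 8 was called between N1d.early and N1d.late. Of the 28 genes higher than in BP, these 8 were called higher than in 4-day neurons, 4 (Gria2, Gpm6a, Map1b and Dpysl3) were called lower, and the other 16 were not called against them.

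Nuak1, a kinase linked to axon branching (chr10:84370905-84440597), stood at 573, 778 and 940 CPM, against 168.5 to 268.4 CPM in BP on the same days and 174.3 to 385 CPM in N4d.early2 and N4d.late2. Its log2 changes were 1.98 ± 0.27 SE (edgeR adjusted p = 0.0168) and 1.57 ± 0.26 SE (edgeR adjusted p = 0.00139). Tagln3, a neuronal actin-binding protein (chr16:45711230-45724608), stood at 1028, 1006 and 1331 CPM, against 267.4 to 539 CPM in those 4-day clusters. Sox11, a SoxC transcription factor of immature neurons (chr12:27334264-27342574), stood at 7325, 8781 and 10717 CPM against 3848, 4692 and 3260 CPM in BP, and its 4-day values reached 7849 CPM in N4d.late2 at E12, above N1d.early on that day. Nfib, a transcription factor of cortical maturation (chr4:82290173-82705750), stood at 3990, 4698 and 4374 CPM against 1954, 3145 and 1212 CPM in BP. N4d.early1 overlapped it at 3852 and 4764 CPM, and the difference to that cluster was 0.11 on the log2 scale (edgeR adjusted p = 0.797).

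The thymosins Tmsb10 (chr6:72957347-72958748) and Tmsb4x (chrX:167207093-167209315) bind monomeric actin. Tmsb4x stood at 6816, 6189 and 6637 CPM, against 4177, 2999 and 3076 CPM in BP and 2066 to 3460 CPM in N4d.late2. Its N4d.early2 values, 4213 to 5296 CPM, were nearer, and that difference did not pass (log2 change 0.50, edgeR adjusted p = 0.110). Tmsb10 varied little over the days, at 715, 611 and 639 CPM, and no BP or 4-day sum exceeded 427 CPM. Bcl11b (chr12:107910403-108003602) varied between 4-day clusters. It stood at 21.3 to 98.9 CPM in N4d.early2, 4.19 and 29.0 CPM in N4d.late1, 7.86 to 317.4 CPM in N4d.late2, but 693 and 433 CPM in N4d.early1, where the difference was 0.40 on the log2 scale (edgeR adjusted p = 0.839). Epha5 (chr5:84054761-84417382) was called against N4d.early2 alone among single 4-day clusters, and its E14 level of 377 CPM lay below all 4 N4d.late2 sums.

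**Figure D4:**
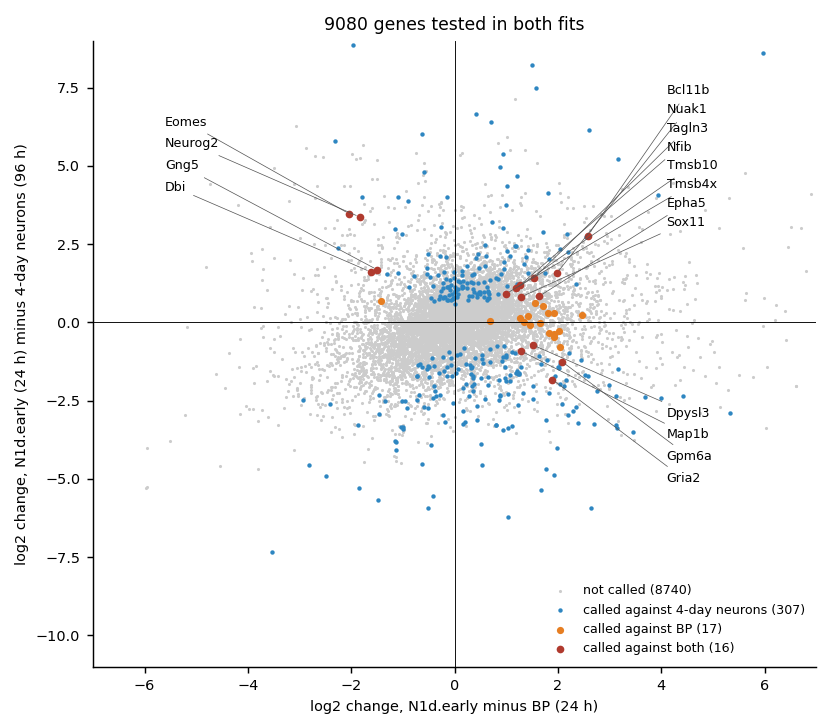
Log2 change against BP (x axis) and against 4-day neurons (y axis) for the 9080 genes tested in both fits. Each point is a gene, coloured by whether edgeR called it, and the 16 genes called in both are named. They fall into 8 genes higher in both, 4 higher than BP and lower than 4-day neurons, and 4 lower than BP and higher than 4-day neurons. The axes leave out 5 genes.

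The comparison between the 2 one-day clusters gave no call. At matched days, edgeR called 0 of 9548 genes (0%) between N1d.early and N1d.late, with 384 genes at an unadjusted p under 0.05 and a lowest adjusted p of 0.632, and DESeq2 called 27. This does not show that the clusters are alike, since N1d.late held 7 cells at E12 and N1d.early 18 at E14. G2 and M phase genes summed to 1329, 795 and 1758 CPM in N1d.early and to 445, 411 and 396 CPM in N1d.late, with a median log2 change of 1.93 over 26 genes, 21 of them positive. Apical progenitor markers summed to 1207, 1087 and 1971 CPM against 376, 739 and 979 CPM, with 8 of 16 higher on each day, against 12.1% of all genes. Eomes (149.03, 135.7 and 362 CPM against 55.8, 27.6 and 92.6 CPM) and Neurog2 (80.3, 74.3 and 157.2 CPM against 15.9, 27.3 and 40.7 CPM) were above N1d.late on each day, with edgeR adjusted p = 0.847 and 0.632. The basal progenitor list that holds both was mixed, with 4 of 15 members higher and 2 lower on each day, and it summed to 1856, 1787 and 1786 CPM against 1892, 1387 and 1404 CPM. The authors' differentiation score per cell had a median of 0.345, 0.343 and 0.302 in N1d.early, below the 0.364, 0.361 and 0.403 of N1d.late.

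Within N1d.early, the E12 and E13 sums shared a run code and had similar totals, the cells at E13 were deeper (medians of 234218 and 285016 counts), and the difference between the sums has no replicate. Of 4614 genes at 50 CPM or more in either sum, 4.18% were at least 2-fold higher at E13 and 3.42% at least 2-fold lower, on log2(CPM + 1). BP cells of the same days moved with some of them: 53 of the higher genes (27.5%) were also at least 2-fold higher at E13 in BP, against 8.95% of the 4614 genes, and 41 of the lower genes (25.9%) were also lower, against 8.32%. In BP, 21 of the higher genes were at least 2-fold lower at E13, and 8 of the lower genes at least 2-fold higher. The genes named next were picked for a change of at least 2-fold in the same direction in N1d.early and in BP. Their agreement with BP was therefore set by the rule. The immediate early factor Egr1 stood at 40.2 CPM at E12, 197.2 at E13 and 50.9 at E14 in N1d.early, and at 22.8 CPM at E12 and 97.4 at E13 in BP. Asxl3, a chromatin regulator, stood at 25.3, 93.9 and 260.02 CPM. Mt2, a metallothionein, was at 61.3 CPM at E12, 9.63 at E13 and 217.98 at E14, and Islr2, a neuronal membrane protein, at 55.6, 8.80 and 2.47 CPM. An Islr2 read was found in 57.4% of cells at E12 and 27.3% at E13.

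Some layer genes differed in level between injection days. Pou3f2, an upper-layer POU factor, stood at 53.4, 125.4 and 927 CPM from E12 to E14. Unc5d, a netrin receptor of upper-layer neurons, stood at 79.8, 227.99 and 454 CPM. Both genes were also higher at E14 than at E12 in N1d.late (59.5 to 490 and 337.2 to 469 CPM). Cux2 stood at 18.9, 13.9 and 232.8 CPM, high at E14 alone. Fezf2 went the other way, from 138.4 and 111.8 CPM to 32.1 CPM, and over these days it was also lowest at E14 in BP (117.3, 140.2 and 58.1 CPM), while Bcl11b and Sox5 were highest at E14 in N1d.early. The E14 values rest on 18 cells under another run code than E12 and E13.

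**Figure D5:**
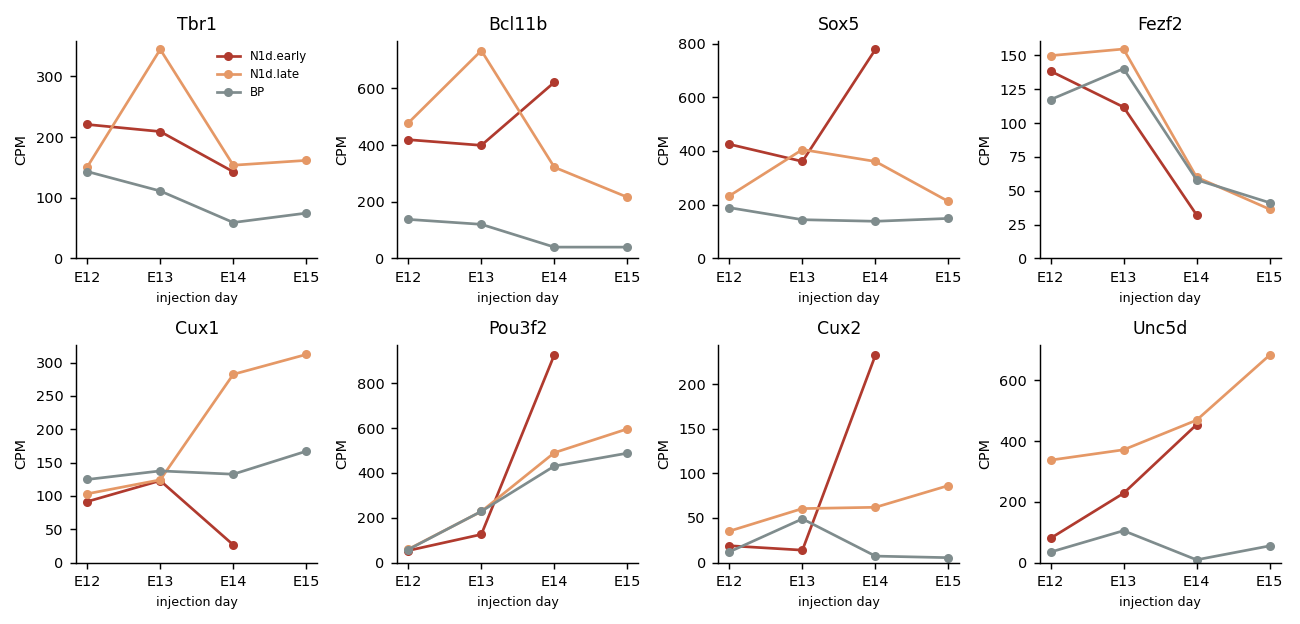
Level (CPM, linear axis from 0) of 4 deep-layer genes (top) and 4 upper-layer genes (bottom) by injection day in the 24 h sums of N1d.early, N1d.late and BP. Each point is 1 sum with no replicate. In N1d.early, Pou3f2 and Unc5d are higher on each later day from E12 to E14, and Fezf2 is lower at E14 than at E12 in all 3 groups.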

How the data were processed

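The deposited table holds raw counts for 16441 genes in 2756 cells, made by the authors; the submitters' processing notes name GRCm38, TopHat2 2.0.13 and UMI-tools without their roles, and no further step is given in the sources used here. Cell totals ran from 13191 to 1312820 counts, so precision differs between cells. Clusters and scores per cell were the authors' labels. Here, counts were summed per cluster and condition, and sums of at least 5 cells were tested with edgeR 4.0.16 (TMM, quasi-likelihood test, R 4.3.3), keeping genes at 10 CPM or more in at least 3 sums, with Benjamini-Hochberg adjustment at 0.05. The 24 h fit used 11 sums with injection day as a block, since same-day classes come from the same condition and run code; the 4-day fit used 15 sums with cluster and centred day. Up to 12 genes each way were named by largest log2 change among called genes of at least 50 CPM on the higher side and 1 sign on E12, E13 and E14, and up to 8 each way by day; genes of the 30 lists were also named. Members and lists were chosen with earlier results of these data known. Alternatives were DESeq2 1.42.0, RLE scaling, other filters, equal cell weight, larger sums, other covariates and leaving out days, and, chosen after seeing the data, cells of at least 200000 counts. On simulated data the tests called no unchanged gene and missed most changed ones, so a gene not called is not shown to be unchanged. No doublet caller was run. In N1d.early, 0 cells held over 5 times the median count of that cluster, which is not a test for doublets. Gene positions are from GENCODE (GRCm38).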

Additional observations from a re-analysis of the deposited data

Results flagged for a closer look

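Single samples stood apart from the other 3 of their group in 4 of 48 groups of 4 examined, and chance flags about 1 in 20. Tbr1 in N1d.late was 344.5 CPM at E13, and Tbr1 in N4d.late2 was 168.7 CPM at E13, below the other days. Tmsb4x in BP was 4177 CPM at E12, above the other days, and Epha5 in N4d.early2 was 165.2 CPM at E13, below them.

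Marker levels were also taken in the 10 N1d.early cells collected at 1 h, which the comparisons do not use. Both they and the apical progenitors are grouped by the authors' labels of these same cells, so a difference between them is not independent evidence. Summed over the 10 cells, Neurod2 stood at 806 CPM, Neurod6 at 514 CPM, Tbr1 at 239.9 CPM and Gap43 at 189.8 CPM. The levels were 19.2, 38.98, 10.7 and 27.1 CPM in apical progenitors of the same conditions. Dcx stood at 1307 CPM in the 10 cells, against 29.6 CPM in the apical progenitors. Progenitor genes were lower but present: Pax6 at 72.9 against 556 CPM, Vim at 970 against 1644 CPM and Sox2 at 37.8 against 179.6 CPM. A Vim read was found in all 10 cells and a Sox2 read in 7. The median depth of the 10 cells was 171477 counts. The Tbr1 level came from the 4 cells of E12 (704 CPM), with 10.5 CPM in the 2 cells of E13 and 8.42 CPM in the 4 of E15, while Neurod2 stood at 1329, 456 and 601 CPM. The difference between the 2 kinds of cell was not tested.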

How the results depend on the processing

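Calls are given here as a percentage of the genes tested in each setting. Cells of at least 200000 counts (the deeper cells) leave no E14 sum of N1d.early. Against BP (0.346%), DESeq2 gave 3.39% (all 33 calls among them), RLE scaling 0.178%, no filter on low counts 0.123%, equal weight of cells 0.210%, sums of at least 15 cells 0.108%, cells of at least 200000 counts 0.0211%, no replicate block of day 0.555%, BP.early cells alone 0%, BP.late cells alone 0.349%, and leaving out a day 0% to 0.0874%. Against N1d.late (0%), DESeq2 gave 0.283%, and each other alternative, no replicate block included, gave 0%. Against the 4-day mean (4.14%), DESeq2 gave 11.3%, sums of at least 15 cells 6.98%, the deeper cells 1.70% (0.279% higher and 1.42% lower), leaving out a day 1.65% to 2.91%, and a replicate block of injection day 3.33%. Against N4d.early2 (2.49%), DESeq2 gave 7.80%, the deeper cells 1.45%, leaving out a day 1.23% to 1.82% and the replicate block 2.28%. Against N4d.late2 (4.48%), DESeq2 gave 11.7%, sums of at least 15 cells 7.25%, the deeper cells 1.64%, leaving out a day 1.24% to 3.07% and the replicate block 3.47%. The 8 genes higher in both contrasts became 27 with DESeq2 (7 shared), 4 with RLE scaling, 4 without the filter, 5 with the detection filter, 5 with equal weight, 2 in sums of at least 15 cells, 0 in the deeper cells and 0 to 1 without a day. Genes lower in both numbered 0, and 12 with DESeq2.

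Of 888 alternative values of 67 single-gene results, 66.7% kept direction and side of the threshold, 31.9% lost the call, 3 gained it and 10 changed sign. The 10 were all of markers that were not called. For Neurod2 against N1d.late the log2 change was 0.16 with equal weight, 0.0037 with no replicate block, and -0.59 to 0.038 without a day. For Neurod6 against N1d.late it was 0.17 with equal weight. For Tbr1 against N1d.late it was 0.13 with equal weight, 0.016 in the deeper cells, 0.0073 with no replicate block, and -0.22 to 0.25 without a day. For Tbr1 against the 4-day mean it was 0.066 with equal weight and -0.45 to 0.0040 without a day. Fewer samples remain when a day is left out, in the deeper cells, in sums of at least 15 cells and with BP.early cells alone. The cause of the moves was not tested. The E14 sum of N1d.early rests on 2.83 M counts, the fewest of its 3 sums.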
